A study of Homo sapiens with 18 samples.

Results

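Dopamine alone was compared with its vehicle in human organoids that the labels describe as ventral forebrain, neural tissues grown in suspension from H9, a human embryonic stem cell line. The members were chosen by the treatment label: 3 libraries of organoids given dopamine and 3 vehicle control libraries, 6 of the 18 libraries in the series, described across the 18913 genes tested of 53853 in the table. From day 83 the organoids of the dopamine group received 1 µM dopamine in 100 µM ascorbic acid. Dosing was daily for 1 week, the medium was changed after 1 h of exposure, and a last dose of 1 h preceded freezing. The control group received 100 µM ascorbic acid alone, so an antioxidant was present in both groups. Ventral patterning of all organoids began after day 10, using SHH, a morphogen, at 100 ng/mL and its pathway agonist purmorphamine at 1 µM. Dopamine + inhibitor and control + inhibitor, 3 libraries each, received the same treatments with 100 µM acetylcysteine, a thiol antioxidant, and were used here as a second set of libraries. The cells come from 1 stem cell line. Nothing in the labels states whether replicate libraries are separate cultures, and p-values may therefore reflect technical spread alone. Libraries were numbered 1 to 3 within each group, and these numbers only name them.

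Dopamine is a monoamine transmitter that acts through G protein coupled receptors, is cleared by transporters and is degraded by monoamine oxidases. Free dopamine also oxidizes to quinones and yields reactive oxygen species. Proteins that misfold in the endoplasmic reticulum (ER) engage the unfolded protein response through the sensors PERK, IRE1 and ATF6, which raises chaperones and the capacity of the secretory pathway. PERK and related kinases also feed the integrated stress response, in which the transcription factor ATF4 raises genes of amino acid supply together with DDIT3 and ATF3.

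Total reads ran from 27879196 to 30327891 in the dopamine libraries and from 26827395 to 30014228 in the controls. Neuronal genes were abundant, with STMN2, a neuronal microtubule regulator, at 2098.94, 1992.54 and 2071.66 TPM (transcripts scaled by gene length and library) in dopamine and 2270.19, 2030.8 and 2157.29 TPM in control. Markers of ventral forebrain and interneurons were mixed in level. The 26 tested summed to 1320 to 1450 CPM in dopamine and 1420 to 1740 CPM in control, with DLX1 and GAD1 well detected, while some were at few or no reads. LHX8, a factor of ventral forebrain neurons, had 2, 1 and 0 reads in dopamine and 0, 0 and 0 reads in control. NKX2-1, a marker of ventral forebrain progenitors, had 6, 2 and 3 reads in dopamine and 39, 21 and 31 reads in control. GAD1, which makes GABA, stood at 214.7, 206.89 and 254.21 TPM in dopamine and 280.99, 239.35 and 263.54 TPM in control. OTX2, a forebrain and midbrain factor, averaged 92.9 TPM in dopamine and 100.4 TPM in control, and HOXB2, a hindbrain factor, averaged 58.5 TPM in dopamine and 44.8 TPM in control. The mitochondrial ribosomal RNA RNR2 took 0.856% to 0.894% of reads in dopamine and 0.76% to 0.785% in control, and its part in the results was not tested. In bulk RNA, fewer cells of a type and less RNA per cell cannot be told apart.

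With dopamine, genes of the ER, the early secretory pathway and the stress responses were higher by modest amounts. A smaller set that included membrane proteins of neurons was lower. The week of dosing and the last dose of 1 h cannot be told apart. Of 18913 genes tested, 133 were called by edgeR at an adjusted p under 0.05 (0.703% of genes), 105 higher (0.555%) and 28 lower (0.148%). The higher genes had a median log2 fold change of 0.38 and a range of 0.20 to 2.38, and 86 of them lay under 0.5. The lower genes had a median of -0.45 and a range of -1.34 to -0.21. Over all genes tested the median was -0.0028 and 49.3% were positive. In each of the 133 genes the dopamine and control libraries did not overlap, while over all genes every dopamine library lay above every control library in 12.2% and below in 11.8%. Unadjusted, 2658 genes (14.1%) had a p under 0.05. The count of called genes rested on single libraries: it was 87 without dopamine 1, 7 without dopamine 2, 100 without dopamine 3, 18 without control 1, 37 without control 2 and 8 without control 3. The 133 genes kept their direction in each of these fits.

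**Figure D1:**
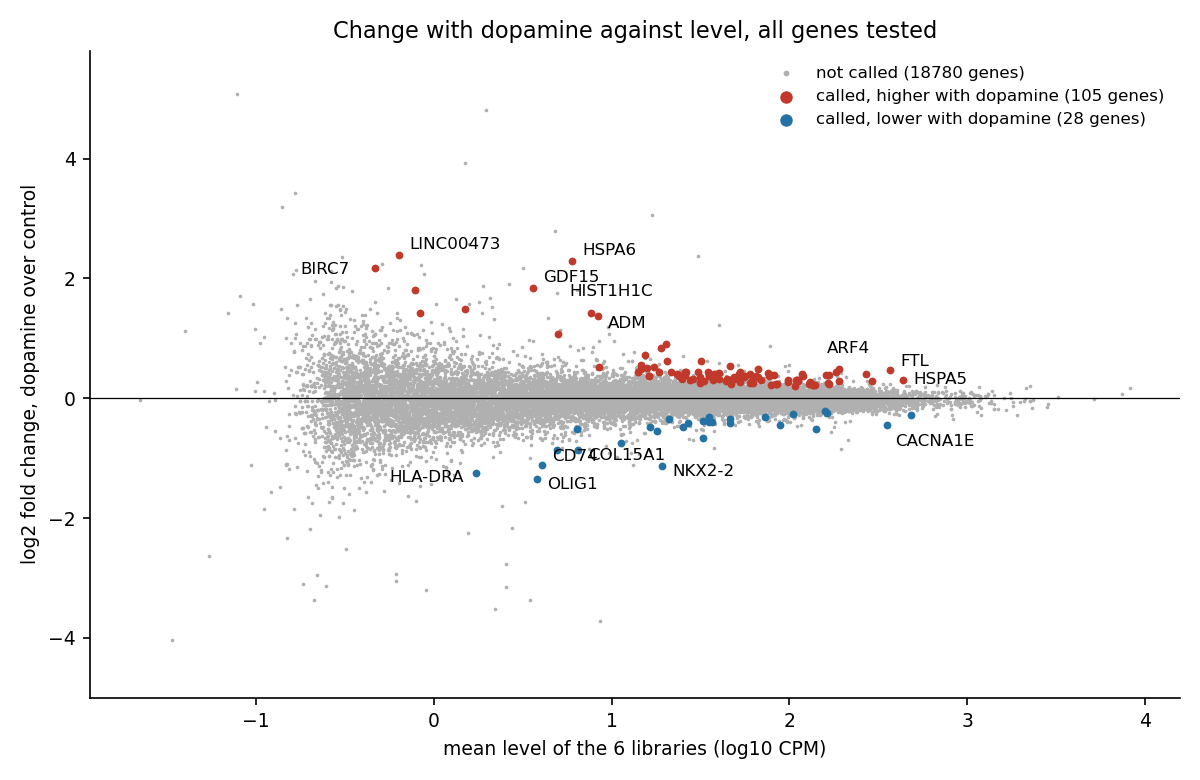
Change with dopamine (log2 fold change, dopamine over control, y axis) against the mean level of the 6 libraries (log10 CPM, x axis) for the genes tested; red and blue points are the 105 higher and 28 lower called genes, grey points the rest, and 1 gene lies below the axis. Most called genes sit at small changes and high levels, and HSPA6, GDF15, ADM and HIST1H1C stand apart among the higher ones.

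The unfolded protein response raises chaperones, folding enzymes and degradation factors of the ER. Of its 32 genes tested 7 rose and 0 fell (21.9% called, against 0.703% of all genes), and the median log2 fold change was 0.12. In sign 28 were positive, against 49.3% of all genes. This list and the other pathway and marker lists were written with earlier results of these data known. Their shares describe the genes and support nothing further. The promoters of HSPA5, SERP1, HERPUD1 and HSPA6 are shown because they hold the elements that ER stress and heat shock factors are known to use. They are RefSeq sequences of GRCh38.p14 from 250 bases before to 50 bases after the annotated start, 5′ to 3′ on the gene's strand. Capitals mark the ER stress response element (CCAAT and CCACG, 9 bases apart) in HSPA5 and SERP1, its second form (ATTGG and CCACG, 1 base apart) and TGATGCAA (a site of ATF4 and C/EBP factors) in HERPUD1, and GAANNTTC (a heat shock element core) in HSPA6, on either strand.
HSPA5 (chr9:125241294-125241593, minus strand): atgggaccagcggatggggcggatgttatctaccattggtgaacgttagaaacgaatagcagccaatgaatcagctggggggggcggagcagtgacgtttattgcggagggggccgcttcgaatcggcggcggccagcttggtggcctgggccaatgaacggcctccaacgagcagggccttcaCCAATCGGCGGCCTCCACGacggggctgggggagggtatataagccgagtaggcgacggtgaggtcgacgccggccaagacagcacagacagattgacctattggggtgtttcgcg
SERP1 (chr3:150546447-150546746, minus strand): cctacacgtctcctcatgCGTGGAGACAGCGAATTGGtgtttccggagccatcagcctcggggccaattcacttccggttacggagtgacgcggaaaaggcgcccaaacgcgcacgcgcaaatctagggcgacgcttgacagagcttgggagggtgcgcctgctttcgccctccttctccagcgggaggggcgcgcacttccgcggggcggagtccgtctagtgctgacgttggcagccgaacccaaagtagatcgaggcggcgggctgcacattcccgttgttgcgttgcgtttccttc
HERPUD1 (chr16:56931892-56932191, plus strand): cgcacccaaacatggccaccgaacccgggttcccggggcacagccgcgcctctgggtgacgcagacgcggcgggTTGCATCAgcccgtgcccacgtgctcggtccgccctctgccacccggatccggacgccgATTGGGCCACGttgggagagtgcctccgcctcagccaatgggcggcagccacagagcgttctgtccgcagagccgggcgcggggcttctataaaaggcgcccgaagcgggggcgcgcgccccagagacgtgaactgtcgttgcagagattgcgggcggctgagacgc
HSPA6 (chr1:161524290-161524589, plus strand): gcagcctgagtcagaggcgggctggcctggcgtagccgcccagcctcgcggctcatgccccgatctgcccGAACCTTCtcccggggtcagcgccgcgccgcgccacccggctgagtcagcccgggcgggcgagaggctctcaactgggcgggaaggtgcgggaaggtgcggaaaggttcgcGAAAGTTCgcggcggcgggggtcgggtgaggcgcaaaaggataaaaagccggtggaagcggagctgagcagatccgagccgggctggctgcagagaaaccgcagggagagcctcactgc

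The ER stress response element starts 66 bases before the annotated start in HSPA5 and, on the opposite strand, 232 bases before it in SERP1. Promoters were matched for 87 of the 105 higher genes. The ER stress response element was in 2 of the 87, against 18 of 13667 promoters of tested genes (0.132%) and 0.0806% of all 27305 promoters. Its second form was in HERPUD1 alone among the 87, against 0.0951% of tested genes and 0.0549% of all promoters. TGATGCAA was in HERPUD1 and NARS, against 0.483% of tested genes and 0.923% of all promoters. GAANNTTC was in 5 of the 87 (5.75%), those of FAM210A, HSPA6, NARS, SRP54 and TMF1, against 4.98% of tested genes and 6.87% of all promoters. The short core ACGTG was in 44 of the 87 (50.6%), against 25.3% of tested genes and 21.6% of all promoters. Where a T follows, ACGTG on the other strand overlaps the last bases of the ER stress response elements, as it does in HERPUD1. TGACGTCA, the cAMP response element, was in TMF1 alone, against 2.99% of tested genes and 1.98% of all promoters. These matches describe letters in the window and were not tested as binding sites.

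HSPA5, the major chaperone of the ER lumen (chromosome 9, 125234853 to 125241343), was at 464, 486 and 486 CPM (reads scaled to library size) in dopamine and 384, 381 and 400 CPM in control. Every dopamine library lay above every control, with a log2 fold change of 0.30 (SE 0.05, edgeR adjusted p = 0.0147). HERPUD1, a membrane protein of ER-associated degradation (chromosome 16, 56932142 to 56944864), was at 53.4, 53.4 and 53.2 CPM in dopamine and 41.7, 44 and 42.3 CPM in control, with almost no spread in the dopamine group (0.32, SE 0.05, adjusted p = 0.00472). EIF2AK3, which encodes the sensor kinase PERK, was at 41.3, 42.5 and 43 CPM in dopamine and 32.8, 32.4 and 34.4 CPM in control (0.35, adjusted p = 0.028). Both groups were tight and separate. The ER co-chaperones rose alongside. DNAJB9 was at 42.5, 46 and 40.6 CPM in dopamine and 35.1, 29.6 and 32.2 CPM in control (0.41, adjusted p = 0.0127), and DNAJC3, also an inhibitor of the kinases of the integrated stress response, was at 56.3, 67 and 59.2 CPM in dopamine and 44.5, 42.6 and 46.8 CPM in control (0.45, adjusted p = 0.0289). SELK, an ER selenoprotein, rose by 0.31, and ERO1A was the seventh called gene.

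Oxidative protein folding was represented by 3 of 11 genes tested, in a list written after the values were seen, with a median of 0.12. P4HB, the protein disulfide isomerase, was at 300, 319 and 308 CPM in dopamine and 218, 239 and 242 CPM in control (0.41, SE 0.07, adjusted p = 0.0147). ERO1A, the oxidase that recharges it, was at 82.2, 95.6 and 80.9 CPM in dopamine and 70.4, 64.2 and 65.6 CPM in control (0.37, adjusted p = 0.0185). P4HA1, the catalytic subunit of collagen prolyl hydroxylase and also a hypoxia target, rose by 0.39. In each of the 3 genes the groups did not overlap.

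Genes that bring proteins into the ER and carry them to the Golgi rose at several successive steps. The lists that describe them were written after the values were seen, so their counts describe the called genes and support nothing further. Of 8 genes of the signal recognition particle and its receptor, 3 rose, and 7 were positive. SRP54, the GTPase subunit that binds signal peptides (chromosome 14, 34982992 to 35029567), was at 92.5, 96.4 and 91 CPM in dopamine and 71.4, 71.6 and 70.8 CPM in control (0.39, SE 0.05, adjusted p = 0.00367). SRPRA, the receptor subunit that docks the particle (chromosome 11, 126235930 to 126268895), was at 84.1, 87.2 and 89.9 CPM in dopamine and 62.2, 65.1 and 67.2 CPM in control (0.43, SE 0.06, adjusted p = 0.00414). Its membrane partner SRPRB was at 41.2, 45.7 and 45.8 CPM in dopamine and 32.9, 33.4 and 34.1 CPM in control (0.40, adjusted p = 0.00715). The 3 genes encode the targeting step from both sides, and in each the lowest dopamine library was above the highest control.

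Coat proteins that bud vesicles from the ER rose in 3 of 13 genes. SEC24A, a cargo adaptor of the COPII coat, was at 64.3, 75.9 and 66.6 CPM in dopamine and 51.4, 53.2 and 51 CPM in control (0.41, SE 0.06, adjusted p = 0.00715). SEC24D, a second adaptor, rose by 0.43, and SAR1B, the GTPase that starts the coat, by 0.33. Of the 13 genes 10 were positive, and the members with the lowest p that did not pass were SEC13 (0.23, adjusted p = 0.0658), SEC31A (0.17, adjusted p = 0.0846) and SEC23A (0.20, adjusted p = 0.105). The 3 negative members were SEC16B (-0.29), SEC31B (-0.15) and SEC16A (-0.09), and none of these passed. Return traffic was represented by 3 of 17 genes. ARF4, a small GTPase of the early Golgi (chromosome 3, 57571363 to 57597344), had the lowest adjusted p of these genes, at 209, 236 and 224 CPM in dopamine and 156, 162 and 160 CPM in control (0.48, SE 0.06, adjusted p = 0.00296). KDELR2, the receptor that returns escaped ER proteins, rose by 0.20, and COPB1, a COPI coat subunit, by 0.24. ARF3, a related GTPase, lay on the other side of 0 (-0.15, adjusted p = 0.161).

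Golgi tethers and the fusion proteins of ER to Golgi transport gave 9 of 26 genes higher (34.6%), with 23 positive and a median of 0.18. They were the tethers GOLGA4 (0.49), GOLGA5 (0.29), TMF1 (0.31) and TBC1D23 (0.35), the trans-Golgi GTPase ARL1 (0.36), the SNARE BET1 (0.37), the cargo receptor LMAN1 (0.26), GOLT1B (0.38) and the Golgi protein ACBD3 (0.23). ARL1, which recruits tethers to the trans-Golgi, was at 56.6, 61.1 and 59.2 CPM in dopamine and 44.5, 46.1 and 46.8 CPM in control, with no overlap. GOLGA4 stood just inside the threshold (adjusted p = 0.0497), at 77, 88.4 and 67.1 CPM in dopamine and 50.4, 58.3 and 57.2 CPM in control. The remaining members, such as GOSR1 (0.01) and STX5 (0.06), did not pass. With 1 library left out, the number of members called ran from 0 to 7 for this list, from 2 to 3 for the signal recognition particle, from 0 to 3 for the COPII coat and from 0 to 6 for the unfolded protein response. For the COPI, ARF and KDEL receptor list it was 1 in each of these fits, and 1 with the length trend removed.

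Glycosylation genes rose in smaller numbers. Of 22 genes of translocation and N-glycosylation, 21 were positive and 2 rose: SERP1, which stabilizes proteins at the translocon (0.27), and STT3A, a catalytic subunit of the oligosaccharyltransferase (0.30). SERP1 was at 134, 149 and 144 CPM in dopamine and 117, 116 and 120 CPM in control. Hexosamine synthesis, which makes the sugar donor for this step, had 2 of 6 genes higher. GFPT1, its rate-limiting enzyme, was at 174, 205 and 188 CPM in dopamine and 145, 153 and 137 CPM in control (0.38, SE 0.06, adjusted p = 0.00892), and PGM3, a later enzyme, rose by 0.36. Both groups of libraries were separate in each of these genes.

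**Figure D2:**
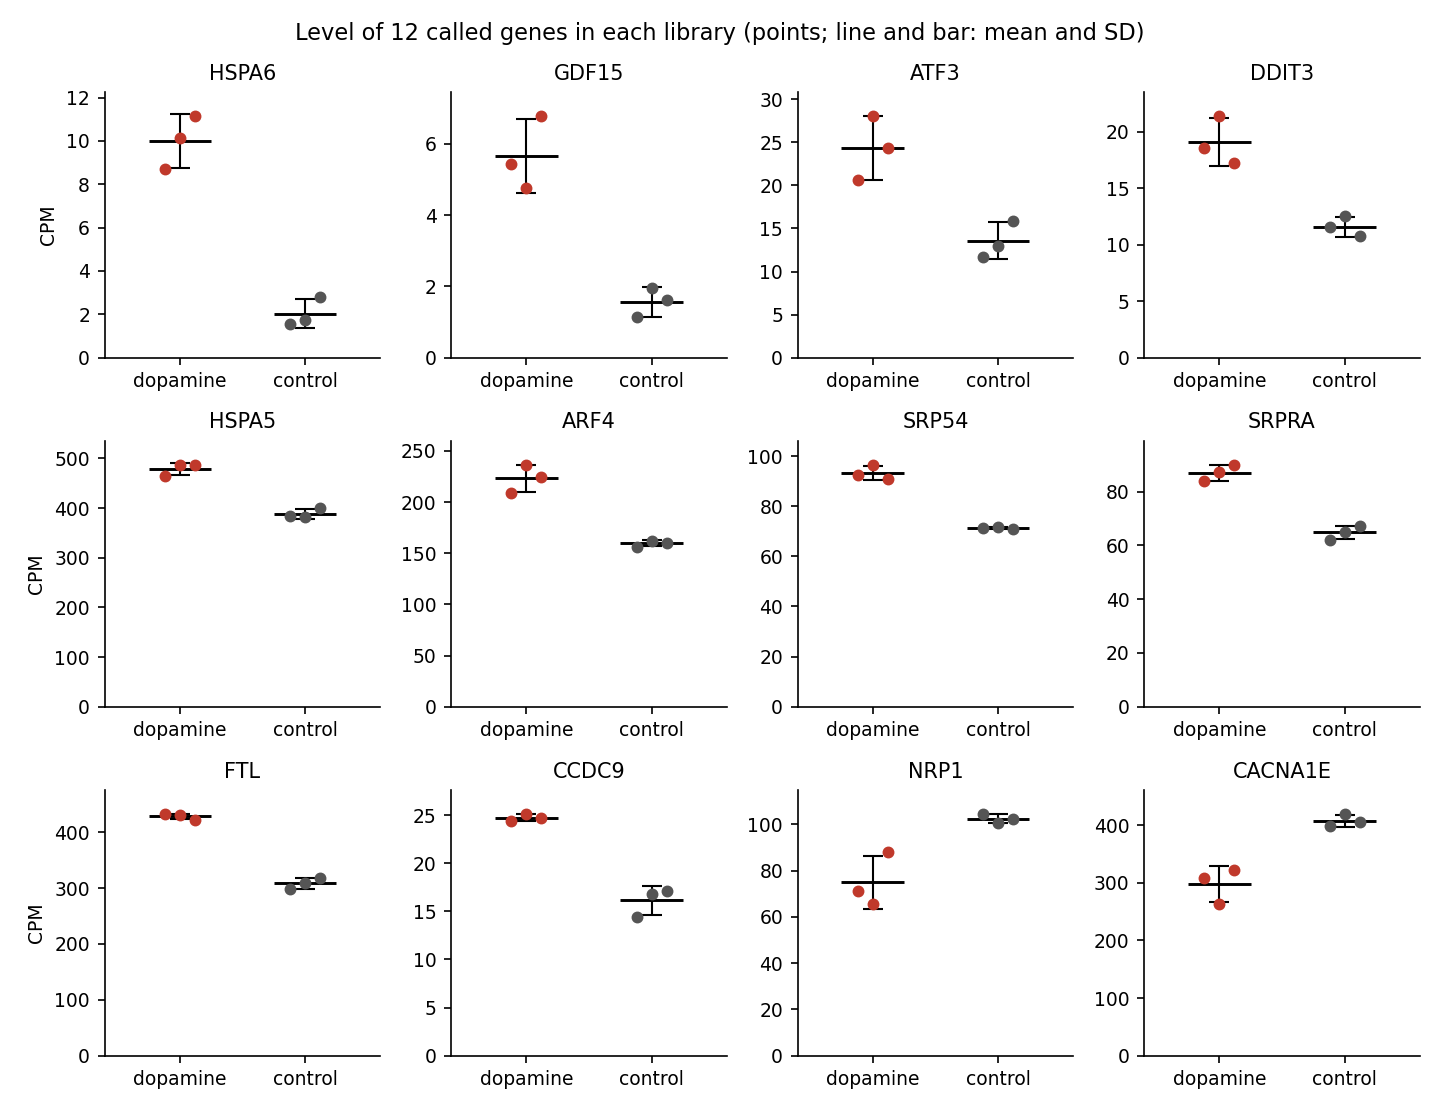
Level of 12 called genes (CPM, y axes starting at 0) in each dopamine and control library; points are libraries, and the line and bar give the mean and SD of 3 libraries. In every panel the groups do not overlap, and the changes of HSPA5, ARF4, SRP54 and SRPRA are small beside those of HSPA6 and GDF15 but tight among libraries.

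The integrated stress response list had 9 of 36 genes higher and 0 lower (25% called, against 0.703% of all genes). Of these 36, 33 were positive, against 49.3% of all genes, and the median was 0.19. ATF3, a stress-induced transcription factor (chromosome 1, 212565407 to 212620777), was at 20.6, 28 and 24.4 CPM in dopamine and 11.7, 13 and 15.9 CPM in control (0.85, SE 0.16, adjusted p = 0.0233). DDIT3, also known as CHOP (chromosome 12, 57516588 to 57520517), was at 18.6, 21.4 and 17.2 CPM in dopamine and 11.5, 12.5 and 10.7 CPM in control (0.72, SE 0.13, adjusted p = 0.0181). Both factors were separate between groups, with dopamine 2 highest. Genes of amino acid and folate supply rose less. They were the tRNA synthetase genes NARS (0.25) and GARS (0.21), the mitochondrial folate enzyme MTHFD2 (0.36) and SLC3A2, the shared chain of several amino acid transporters (0.30). SESN2, a sestrin that restrains the growth kinase mTOR, was at 36.3, 41.1 and 41.2 CPM in dopamine and 29.7, 31.6 and 31 CPM in control (0.36, adjusted p = 0.0192). GDF15, a stress cytokine (chromosome 19, 18386158 to 18389176), was at 5.44, 4.75 and 6.78 CPM in dopamine and 1.13, 1.95 and 1.62 CPM in control (1.84, SE 0.37, adjusted p = 0.0307). DDIT4, which also restrains mTOR, was the ninth and is described with the inhibitor libraries. With 1 library left out the list had 0 to 7 called.

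Cytosolic chaperones were positive in 32 of 34 genes, against 49.3% of all genes, with 3 called higher (8.82%, against 0.703% of all genes called). HSPA6, a strictly inducible HSP70 (chromosome 1, 161524540 to 161526894), was at 8.68, 10.1 and 11.1 CPM in dopamine and 1.54, 1.75 and 2.82 CPM in control (2.29, SE 0.38, adjusted p = 0.0147). Its counts are uncertain because near-identical copies exist, as for FTL and the histone genes. The lowest dopamine library was above the highest control by a wide margin. The other called members were DNAJB4 (0.43), a J-domain partner of HSP70, and HSPH1 (0.29), a nucleotide exchange factor. HSPA9, the mitochondrial HSP70, was outside the lists and rose by 0.29, at 310, 327 and 321 CPM in dopamine and 260, 258 and 266 CPM in control. CRYAB, a small heat shock protein, did not pass (1.80, SE 0.42, adjusted p = 0.0693).

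Hypoxia, p53, iron and activity genes gave scattered calls. Of 32 hypoxia-inducible factor targets 4 rose (12.5%, against 0.703% of all genes called): ADM, SLC2A3, BHLHE40 and P4HA1. ADM, the peptide adrenomedullin, was at 11.6, 14.7 and 9.85 CPM in dopamine and 4.02, 5.19 and 4.73 CPM in control (1.37, SE 0.27, adjusted p = 0.027). SLC2A3, a neuronal glucose transporter, was at 131, 144 and 129 CPM in dopamine and 104, 105 and 95.7 CPM in control (0.41), and SLC2A1 lay outside the threshold (0.38, adjusted p = 0.0622). PPP1R3C, which targets a phosphatase to glycogen, was the 1 gene of 34 of glycolysis and glycogen that rose, at 24, 30.7 and 24 CPM in dopamine and 14.3, 15.4 and 12.3 CPM in control (0.91, SE 0.14, adjusted p = 0.00715). No glycolytic enzyme of the list was called by edgeR, and 7 of its 34 genes were higher at an unadjusted p under 0.05. The called share of the list was 2.94%, against 0.703% of all genes. BHLHE40, a hypoxia and clock repressor, rose by 0.62.

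Among 28 targets of p53, 5 rose (17.9%, against 0.703% of all genes called). RRM2B, the p53-induced subunit of ribonucleotide reductase, was at 53.1, 60.8 and 50.2 CPM in dopamine and 38.2, 37.6 and 36.8 CPM in control (0.54, SE 0.08, adjusted p = 0.00715). The death receptor gene TNFRSF10B rose by 0.35 and the decoy receptor gene TNFRSF10D by 1.07, and GDF15 and SESN2 belong to this list as well. CDKN1A, the cell cycle inhibitor p21, was at 111, 117 and 114 CPM in dopamine and 76.3, 84.9 and 87.6 CPM in control and narrowly missed the threshold (0.46, adjusted p = 0.0515). Iron genes rose in both arms of iron handling. FTL, the ferritin light chain that stores iron (chromosome 19, 48965309 to 48966879), was at 432, 430 and 422 CPM in dopamine and 298, 309 and 319 CPM in control (0.47, SE 0.06, adjusted p = 0.00367). TFRC, the transferrin receptor that imports iron, was at 118, 124 and 123 CPM in dopamine and 93.6, 107 and 96.1 CPM in control (0.30, adjusted p = 0.03). They were the called members of 31 NRF2 and iron genes (6.45%, against 0.703% of all genes), whose median was 0.05.

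Immediate early and CREB target genes gave 2 of 38 higher (5.26%, against 0.703% of all genes called). PER1, a clock gene and CREB target, was at 55.6, 63.2 and 60.1 CPM in dopamine and 40.4, 51.8 and 42.5 CPM in control (0.41, SE 0.08, adjusted p = 0.0221). FOSB, an activity-regulated AP-1 factor, was at 2.16, 2.51 and 1.98 CPM in dopamine and 0.526, 1.28 and 0.542 CPM in control (1.49, adjusted p = 0.0392). Both were separate between the groups. The AP-1 and nuclear receptor genes JUNB (0.53, adjusted p = 0.0829), FOSL2 (0.65, adjusted p = 0.102) and NR4A3 (0.96, adjusted p = 0.14) did not pass. LINC00473, a long noncoding RNA known as a CREB target in human cells, rose to 0.973, 1.47 and 0.793 CPM in dopamine, against 0.226, 0.202 and 0.181 CPM in control (2.38, SE 0.53, adjusted p = 0.0409).

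Further higher genes had other roles. HIST1H1C, a linker histone gene whose transcripts are partly polyadenylated in differentiated cells, was at 10.8, 10.8 and 11.8 CPM in dopamine and 3.46, 4.78 and 4.15 CPM in control (1.42, SE 0.24, adjusted p = 0.0127). It was the 1 called gene of 21 histone genes (4.76%, against 0.703% of all genes called). CCDC9 was at 24.4, 25.1 and 24.7 CPM in dopamine and 14.4, 16.8 and 17.1 CPM in control (0.61, SE 0.09, adjusted p = 0.00456). Both genes had tight dopamine libraries above every control. Genes with the largest changes at 5 CPM or more also included ICAM5, a neuronal adhesion molecule (0.56), PLAG1 (0.53), COX14, an assembly factor of cytochrome oxidase (0.52), MFSD2A, a lysolipid transporter (0.50), and HS3ST3B1, a heparan sulfate sulfotransferase (0.49). Genes singled out after their values were seen were ZNF598, a ubiquitin ligase that senses collided ribosomes (0.42), SLC30A5, a zinc transporter of the secretory pathway (0.33), ALKBH5, an RNA demethylase (0.36), and NAMPT, an enzyme of NAD synthesis (0.36). STARD4, a sterol carrier, rose by 0.30. It was the 1 called gene of 26 of cholesterol and fatty acid synthesis (3.85%, against 0.703% of all genes called).

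CCDC9, ARF4, FTL, SRPRA and SRP54 were the 5 genes called in each of the 6 fits that left out 1 library and in each of the 14 alternatives. Their highest adjusted p with a library left out was 0.0381 for each. Of the 133 genes, 14 were called in at least 4 of these 6 fits and 27 in none. HSPA6, ATF3 and DDIT3 reached adjusted p of 0.103, 0.162 and 0.146 in their least favourable fit, and HSPA5 0.11.

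Lower genes were fewer and included proteins of the neuronal surface. CACNA1E, the R-type calcium channel (chromosome 1, 181317699 to 181808084), was at 309, 263 and 322 CPM in dopamine and 398, 419 and 405 CPM in control (-0.45, SE 0.09, adjusted p = 0.0224). Dopamine 2 was the lowest library, and the groups did not overlap. CACNA1E was the 1 called gene of 23 calcium channel genes (4.35%, against 0.703% of all genes called). Of the 23, 21 were negative with a median of -0.17, while 49.3% of all genes were positive. NRP1, a receptor of semaphorins, was at 71.2, 65.8 and 87.9 CPM in dopamine and 104, 101 and 102 CPM in control (-0.45, SE 0.08, adjusted p = 0.0165), and UNC5A, a netrin receptor, was at 29.9, 31 and 30.7 CPM in dopamine and 42.4, 38.7 and 39 CPM in control (-0.39, adjusted p = 0.038). These were the 2 lower genes of 42 of axon guidance (4.76%, against 0.703% of all genes called). CADM3, a neuronal adhesion molecule, fell by 0.27, TMEM266, a voltage sensor protein, by 0.47, and SEMA4G, a semaphorin, by 0.31. Also lower were TMEM179 (-0.42), GPRIN2 (-0.40), BRINP3 (-0.31), SHISA4 (-0.35) and ARHGEF11 (-0.25).

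Progenitor, matrix and immune genes made up most of the larger falls. OLIG1, a factor of oligodendrocyte precursors (chromosome 21, 33070141 to 33072413), was at 2.67, 1.36 and 2.41 CPM in dopamine and 4.74, 6.4 and 5.2 CPM in control (-1.34, SE 0.24, adjusted p = 0.0141). NKX2-2, a factor of ventral progenitors and oligodendrocytes, was at 9.98, 9.71 and 16.5 CPM in dopamine and 20.8, 32.2 and 26.1 CPM in control (-1.13, SE 0.23, adjusted p = 0.0383). These were the 2 called genes of 12 oligodendrocyte markers (16.7%, against 0.703% of all genes). Of the 12 markers 10 were negative, while 49.3% of all genes were positive, and the list median was -0.34. OLIG2 (-1.12, adjusted p = 0.258) and the myelin gene MBP (-0.58, adjusted p = 0.0829) did not pass. The summed level of the list ran from 339 to 386 CPM in dopamine and from 347 to 362 CPM in control, and its part in the fall of OLIG1 and NKX2-2 was not tested. COL15A1, a basement membrane collagen, fell by 0.86 and HMCN2, an extracellular hemicentin, by 0.86.

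CD74 and HLA-DRA, which encode the invariant chain and the alpha chain of MHC class II, were named after their values were seen. CD74 was at 2.09, 2.41 and 3.17 CPM in dopamine and 3.91, 4.28 and 8.48 CPM in control (-1.12, SE 0.23, adjusted p = 0.028). HLA-DRA was at 0.865, 1.08 and 1.12 CPM in dopamine and 2.37, 1.85 and 3.14 CPM in control (-1.25, SE 0.24, adjusted p = 0.0185). Of 11 MHC class II genes tested 10 were negative, while 49.3% of all genes were positive. CIITA, the master regulator of MHC class II genes, was at 1.62, 1.4 and 1.45 CPM against 2.22, 2.42 and 2.17 CPM without passing (-0.61, adjusted p = 0.143). The microglial marker PTPRC was at 2.05, 1.61 and 1.19 CPM in dopamine and 0.451, 1.25 and 2.24 CPM in control, so the groups overlapped. Of the 4 microglial markers tested, 2 were positive and 2 negative, from -0.70 to 1.87, and edgeR called 0. In 1 of the 4 every dopamine library lay above every control, against 12.2% of all genes. The summed level of the 4 ran from 4.07 to 5.2 CPM in dopamine and from 3.46 to 5.81 CPM in control. ACKR1, a chemokine-binding receptor and endothelial marker, was at 14.5, 14.4 and 14.8 CPM in dopamine and 20.8, 21.9 and 21.3 CPM in control (-0.55, SE 0.10, adjusted p = 0.0127). Of the 8 endothelial markers tested, 3 were negative, ACKR1 with FLT1 (-0.56, adjusted p = 0.808) and EGFL7 (-0.22, adjusted p = 0.426), and 5 were positive, among them CLDN5 (0.29, adjusted p = 0.791) and KDR (0.54, adjusted p = 0.718). Their summed level ran from 33.4 to 34.1 CPM in dopamine and from 37.2 to 40.5 CPM in control. ACKR1 alone made up 14.4 to 14.8 CPM of this sum in dopamine and 20.8 to 21.9 CPM in control. On chromosome 1, ACKR1 (159204875 to 159206500) lies close after the end of CADM3 (159171615 to 159203313). CADM3, also called lower, averaged 437 CPM in dopamine and 528 CPM in control. Whether reads from CADM3 were counted in ACKR1 was not tested. The remaining larger falls were in the pseudogene FAR2P1 (-0.66), LOC101928521 (-0.75), the F-box gene FBXL6 (-0.51), NBEAL2 (-0.49) and LOC440300 (-0.41).

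**Figure D3:**
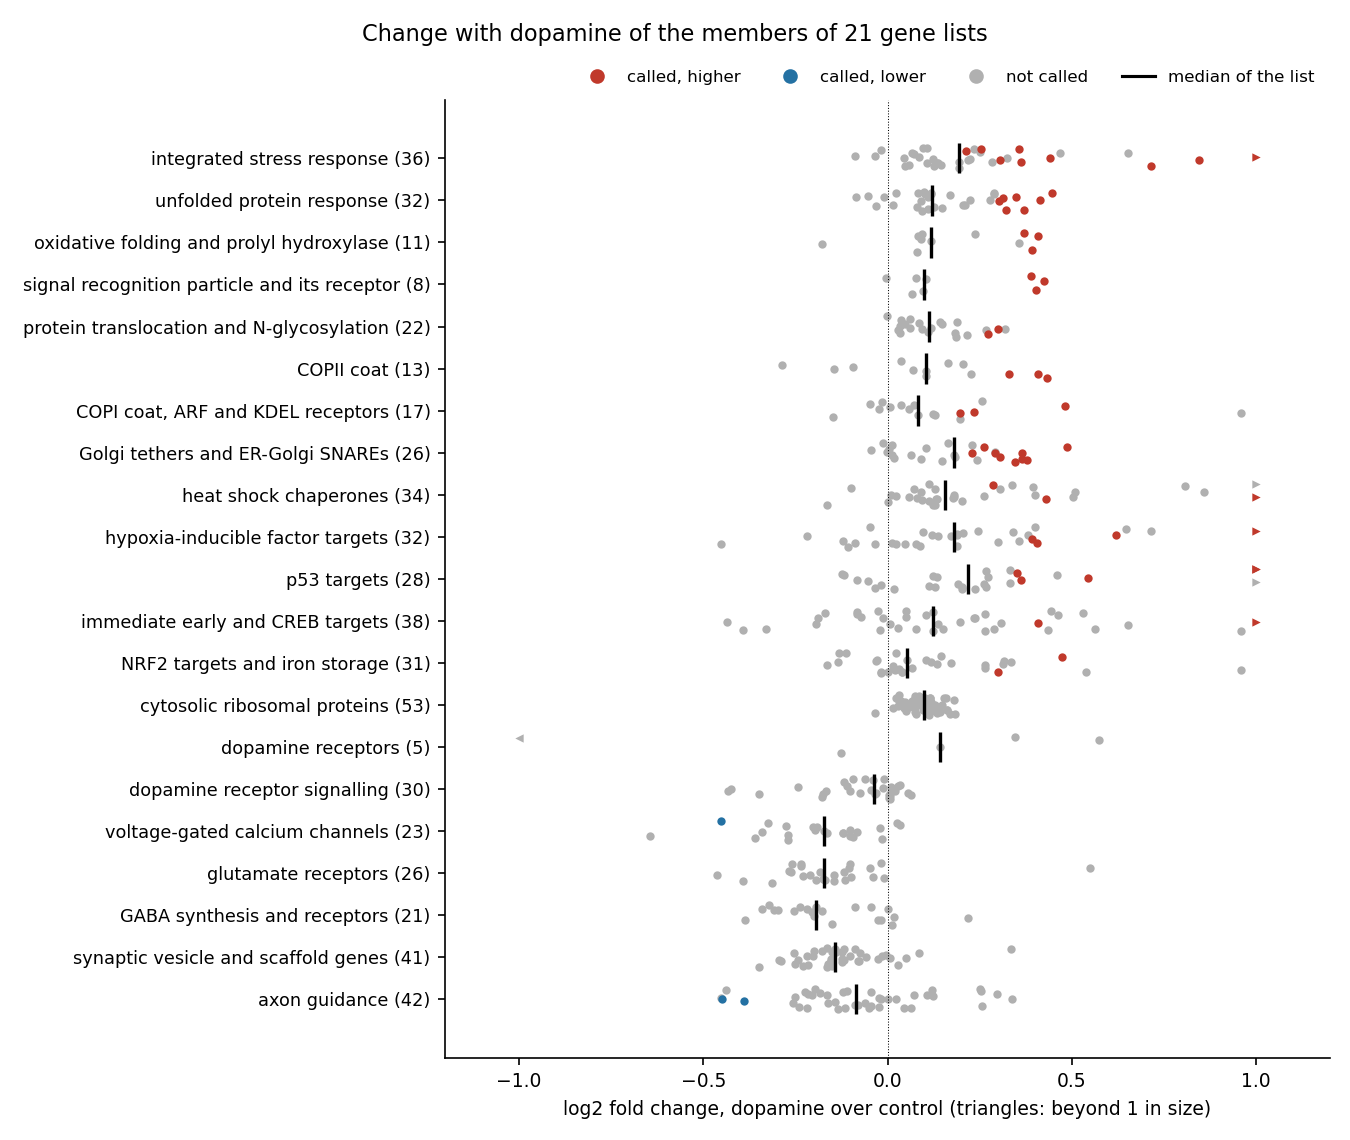
Log2 fold change, dopamine over control (x axis), of each tested member of 21 gene lists, with the number tested in parentheses; red and blue points are called genes, grey points are not called, black lines are list medians, and triangles mark members beyond 1 in size. Called genes of the ER, Golgi and stress lists lie to the right, and the glutamate receptor, GABA, calcium channel and synaptic lists sit slightly left of 0 with few calls.

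Synaptic and receptor genes shifted by small amounts, mostly downward, and rarely passed. Of 41 synaptic vesicle and scaffold genes 36 were negative with a median of -0.14 and 0 called by edgeR, against 5 by DESeq2 and 0 by voom, and 14 lower and 1 higher had an unadjusted p under 0.05. SHANK1, a postsynaptic scaffold, was at 75, 68.8 and 74.2 CPM in dopamine and 101, 91.6 and 85.3 CPM in control (-0.35, adjusted p = 0.055), and SV2A, a vesicle glycoprotein, was at 590, 559 and 631 CPM in dopamine and 756, 697 and 724 CPM in control (-0.29, adjusted p = 0.105). Both were separate between the groups. Of 26 glutamate receptor genes 25 were negative with a median of -0.17, and edgeR called 0, DESeq2 2 and voom 0, with 5 at an unadjusted p under 0.05. Of 21 GABA genes 17 were negative with a median of -0.19, and edgeR called 0, DESeq2 1 and voom 0, with 5 at an unadjusted p under 0.05. Over all 18913 genes, 49.3% were positive, and 1312 were lower at an unadjusted edgeR p under 0.05. Every dopamine library lay below every control in 22 of the 41 synaptic, 10 of the 26 glutamate receptor and 11 of the 21 GABA genes. Over all genes this share was 11.8%. The vesicular glutamate transporter gene SLC17A6 went the other way, at 54.5, 62.7 and 50.7 CPM in dopamine and 50.3, 38.4 and 44.2 CPM in control, without passing (0.34, adjusted p = 0.136). Transcript length moved with these differences: the median log2 fold change was 0.02 in the 5170 shortest genes, 0.0005 in the 5170 of middle length and -0.02 in the 5170 longest. Its part in them was not tested beyond the fit with a length trend removed, which called 128 genes, 117 of them among the 133. That fit called 107 higher genes, against 105 in the main fit, and 21 lower genes, against 28. UNC5A, CADM3, SEMA4G, TMEM179, BRINP3 and ARHGEF11 were among the lower genes that it did not call.

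Genes that receive, carry and metabolize dopamine were measured but not called. In TPM, DRD2, the inhibitory receptor, was highest at 8.84, 8.47 and 7.95 in dopamine and 10.5, 8.05 and 9.29 in control. DRD1, the main stimulatory receptor, was at 2.62, 2.6 and 3.22 TPM in dopamine and 2.19, 2.15 and 2.36 TPM in control. DRD4 was at 2.63, 2.15 and 3.77 TPM in dopamine and 2.01, 2.43 and 1.34 TPM in control. The libraries of DRD1 and DRD4 overlapped each other in level, and both were below DRD2 in every library. DRD5 averaged 0.66 TPM in dopamine and 0.613 TPM in control, and DRD3 averaged 0.157 and 0.337 TPM on 2 to 7 reads in dopamine and 7 to 10 in control. Among the 5 receptors edgeR called 0, with 0 at an unadjusted p under 0.05, 0 by DESeq2 and 0 by voom. The smallest adjusted p was 0.44, for DRD3, and counts this low limit what could be detected.

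SLC6A3, the dopamine transporter and the direct target of cocaine, had 2, 1 and 10 reads in dopamine and 6, 5 and 10 reads in control and did not pass the filter on low counts. SLC29A4, a low-affinity monoamine transporter, was by far more abundant, at 51.55, 49.86 and 53.75 TPM in dopamine and 61.24, 59.89 and 56.91 TPM in control, without passing (-0.18, adjusted p = 0.145). SLC18A2, the vesicular monoamine transporter, averaged 6.16 TPM in dopamine and 6.44 TPM in control. TH, the rate-limiting enzyme of dopamine synthesis, was at 1.9, 2.4 and 1.6 TPM in dopamine and 1.37, 1.26 and 1.53 TPM in control (0.51, adjusted p = 0.468). Its groups were separate at low counts. The degrading enzymes MAOA and MAOB were at 34.36, 35.87 and 36.4 TPM and at 4.62, 4.46 and 3.74 TPM in dopamine, against 43.99, 41.97 and 40.78 TPM and 6.51, 5.22 and 5.77 TPM in control. Every dopamine library was below every control for both, but neither passed (-0.24 and -0.43, adjusted p = 0.219 and 0.303). Of 30 genes of dopamine receptor signalling edgeR called 0, DESeq2 1 and voom 0, with 5 lower at an unadjusted p under 0.05. Among them RGS9, which speeds G protein shutoff, was at -0.43 (adjusted p = 0.113).

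The 133 genes were then read in dopamine + inhibitor against control + inhibitor, libraries outside the contrast that chose them. These libraries did enter the same model, through the filter and the shared estimate of the spread. They are therefore not a fully independent check. Of the 105 higher genes 91 (86.7%) were positive there with a median log2 fold change of 0.14, while over all genes 48.2% were positive with a median of -0.0051. In 51 of them (48.6%) every dopamine + inhibitor library lay above every control + inhibitor library, against 5.81% of all genes, and 53 had an unadjusted p under 0.05 in the same direction, against 5.58% of all genes in either direction. Of the 28 lower genes 22 (78.6%) were negative with a median of -0.07, and in 6 (21.4%) the libraries did not overlap in that direction, against 4.41% of all genes. By adjusted p, 1 gene in all was called in this set (0.00529%).

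The 1 called gene was BIRC7, an inhibitor of apoptosis. It was at 1.12, 1.2 and 1.13 CPM in dopamine + inhibitor and 0.212, 0.213 and 0.193 CPM in control + inhibitor (2.45, adjusted p = 0.0191). In the libraries without the inhibitor it was at 0.937, 0.873 and 0.496 CPM in dopamine and 0.113, 0.236 and 0.144 CPM in control (2.17, SE 0.36, adjusted p = 0.0106). Both sets of groups were separate at this low level. Among the secretory genes ARF4 was at 209, 202 and 187 CPM in dopamine + inhibitor and 164, 156 and 166 CPM in control + inhibitor (0.30), and SRP54 at 88, 85.4 and 79.3 CPM in dopamine + inhibitor and 72.1, 67.7 and 74.8 CPM in control + inhibitor (0.24). P4HB was at 0.30, GFPT1 at 0.26, SRPRA at 0.27 and FTL at 0.22 in the same comparison. HERPUD1 (0.05), HSPA5 (0.09), NARS (-0.0045) and HSPH1 (0.0089) were near 0 there. None of these passed the edgeR test of the difference between the 2 comparisons (adjusted p from 0.385 to 0.523). The genes were chosen by the first comparison, so their changes in it may be overstated. CACNA1E (-0.07), OLIG1 (-0.13) and FAR2P1 (-0.05) were also close to 0, while CD74 (-0.84), HLA-DRA (-0.82) and NKX2-2 (-0.60) stayed below it.

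**Figure D4:**
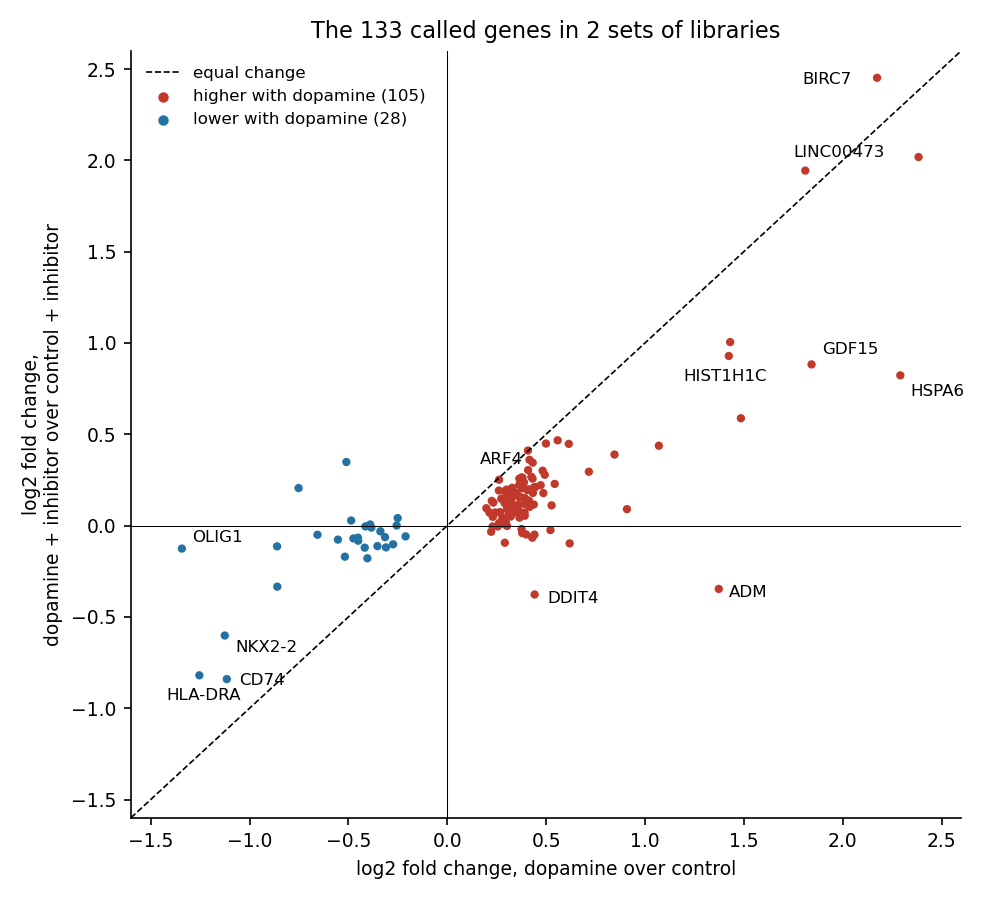
Log2 fold change of the 133 called genes in dopamine over control (x axis) and in dopamine + inhibitor over control + inhibitor (y axis), with a dashed line at equal change; red points are the 105 higher and blue points the 28 lower genes. Most points lie between the dashed line and 0, BIRC7 lies above the line, and DDIT4 and ADM are higher on the x axis and below 0 on the y axis.

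The difference between the 2 dopamine comparisons was tested as an interaction, which contains the comparison that chose the genes. Among all genes, 1 was called (0.00529%) and 1580 (8.35%) had an unadjusted p under 0.05. The called gene was DDIT4, an inhibitor of mTOR induced by several stresses (chromosome 10, 72273924 to 72276036). Without the inhibitor it was at 214, 204 and 213 CPM in dopamine and 147, 168 and 150 CPM in control (0.44, SE 0.07, adjusted p = 0.00952). With the inhibitor it was at 146, 160 and 134 CPM in dopamine + inhibitor and 197, 181 and 193 CPM in control + inhibitor (-0.38, SE 0.07, adjusted p = 0.193). The groups were separate in both sets, in opposite directions. The interaction was -0.82 (SE 0.10, adjusted p = 0.00457), and DDIT4 passed in all 19 alternatives of this test, with adjusted p from 5.92e-10 to 0.0333. ADM had -1.72 and BHLHE40 -0.72 without passing.

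Cocaine against control uses the same 3 control libraries, so its values are given beside those of dopamine without a comparison (4.33% of all genes were called for cocaine). The log2 fold change of HSPA6 was 2.29 with dopamine and 2.04 with cocaine, that of CACNA1E -0.45 and -0.51, and that of SEC24A 0.41 and 0.07. ADM had 1.37 and 0.35, and BIRC7 had 2.17 and 1.12. HSPA5 had 0.30 and 0.30, FTL 0.47 and 0.33, and ARF4 0.48 and 0.25. With cocaine the 105 higher genes were all positive (median 0.216) and the 28 lower genes all negative (median -0.375). Because the controls are shared, these counts are not separate support.

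Regional and choroid plexus genes differed widely between libraries, some of them in single libraries and some in all. PAX5, a factor of the midbrain-hindbrain boundary, was at 4.86, 3.7 and 81.7 CPM in dopamine and 5, 2.46 and 3.47 CPM in control, and EN2, its neighbour in that region, at 1.33, 1.36 and 22.6 CPM in dopamine and 1.35, 1.25 and 1.05 CPM in control. Dopamine 3 was high for both, and the other dopamine libraries lay at the level of the controls. HOXB8, a gene of posterior identity, was at 0.937, 2.09 and 0.595 CPM in dopamine and 19.7, 0.741 and 27.3 CPM in control, so controls 1 and 3 were high and control 2 was not. Of 27 HOX genes tested, a list written after the values were seen, edgeR called 0, with 1 at an unadjusted p under 0.05 and 0 by DESeq2 and voom. TTR, a thyroid hormone carrier typical of choroid plexus, had 50.3, 61.8 and 42.3 CPM in dopamine and 1.32, 7.44 and 21.1 CPM in control without passing (2.37, SE 1.12, adjusted p = 0.372). The summed level of 15 choroid plexus markers ran from 252 to 279 CPM in dopamine and from 170 to 255 CPM in control. DLX1, a factor of interneuron precursors, was at 27.1, 14.7 and 27.4 CPM in dopamine and 56.3, 50 and 42 CPM in control (-1.10, SE 0.30, adjusted p = 0.114), and DLX6 was at 10.9, 5.48 and 10.4 CPM in dopamine and 16.4, 16 and 18.1 CPM in control (-0.91, adjusted p = 0.11). Markers of proliferating cells were positive in 24 of 28 genes, against 49.3% of all genes, with a median log2 fold change of 0.175. In 9 of the 28 every dopamine library lay above every control, against 12.2% of all genes. For these markers edgeR, DESeq2 and voom each called 0, with 1 at an unadjusted p under 0.05, and their summed level ran from 690 to 770 CPM in dopamine and from 620 to 702 CPM in control. The part of these cell types in the called genes, the stress lists included, was not tested.

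**Figure D5:**
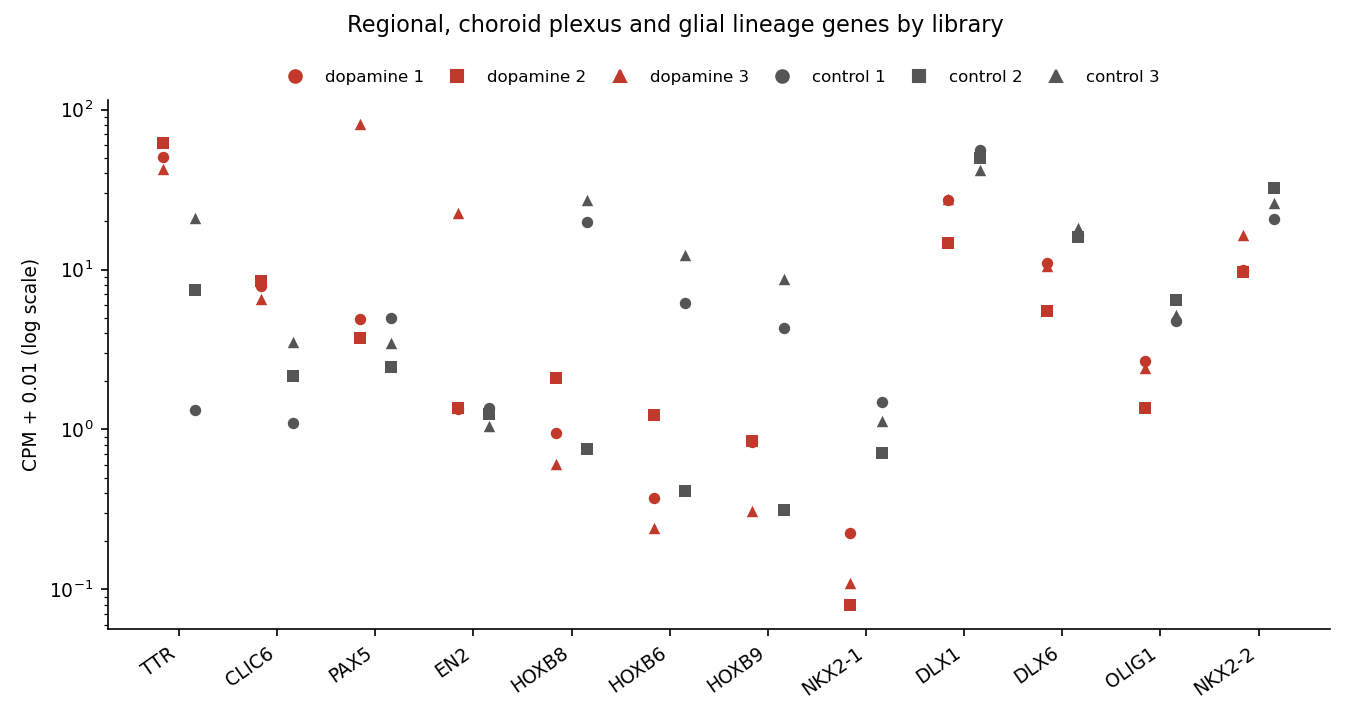
Level (CPM + 0.01, log scale, y axis) of 12 regional, choroid plexus and glial lineage genes in each dopamine (red) and control (grey) library; the marker shape gives the library number. PAX5 and EN2 are high in dopamine 3 alone and the HOXB genes in controls 1 and 3, while TTR, DLX1, OLIG1 and NKX2-2 separate the groups.

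The authors' deposited table for dopamine, whose header names no comparator, listed 64 genes, 42 higher and 22 lower, none under 1.03 in log2 size or above an FDR of 0.05. All 64 were tested here with the same direction, 14 were called (21.9% of the table and 10.5% of the 133), and 48 had an unadjusted p under 0.05. These 14 are all the called genes that changed by 1 or more on the log2 scale. The secretory, ER and iron genes above lie under that size and are not in it. A highest group mean under 1 was given for 36 genes in the authors' deposited table, and 7 of its genes were HOX genes. By the authors' deposited table the higher genes with the largest log2 fold changes were CDC27P9 at 4.88, PAX5 at 3.05, EN2 at 2.8, ABCA4 at 2.57 and LINC00473 at 2.39. Among its lower genes, HOXB8 was at -3.71. Of these genes, LINC00473 was called here. PCDHA10, listed at 2.18 in the authors' deposited table, was at 1.55, 13 and 1.09 CPM in dopamine and 1.2, 0.909 and 1.34 CPM in control, so dopamine 2 alone was high.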

How the data were processed

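The authors deposited raw read counts per gene and TPM values for 18 bulk RNA libraries, per the file headers. Per the submitters' processing notes the build was hg38 (GRCh38). No source used here gives the aligner, counter or strand setting, so overlapping and antisense genes, and genes with near-identical copies (HSPA6, FTL, histone genes), are uncertain. The authors' deposited table of dopamine against control gives a log2 fold change, a signed fold change (a score), the highest group mean (a signal without a stated unit) and a p-value with its FDR. 28 gene names had been turned into dates in the files, and 26 of these passed the filter.

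Counts were tested with edgeR 4.0.16 (R 4.3.3; quasi-likelihood, TMM scaling, Benjamini-Hochberg adjustment over all genes) after a filter on low counts (minimum count 10), in 1 model over the 18 libraries, which share one estimate of the spread. CPM values are TMM-scaled. DESeq2 1.42.0 and limma 3.58.1 (voom) were alternatives, with other scalings, filters, a fit of the 6 libraries alone and each library left out. A fit with a length trend removed was chosen after seeing the data. Tables and figures used Python 3.11.15, pandas 2.3.3 and matplotlib 3.10.9. On simulated data for dopamine against control over 18913 genes, edgeR called 38 of 50 genes raised by 0.5 and 44 of 50 raised by 1, 25 of 50 lowered by 0.5 and 42 of 50 lowered by 1 on the log2 scale, with 11 false calls among 160.

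The members and gene lists were chosen with earlier results of these data known. The lists of the signal recognition particle, coats, Golgi tethers, glycosylation, hexosamine, oxidative folding, MHC class II, HOX and midbrain genes were written after these values were seen. Named were the 20 higher and 15 lower called genes with the largest changes at a group mean of at least 5 CPM, called members of lists, members of each list with the lowest p, the dopamine genes, genes called with every library left out, and the leading genes of the authors' table. Other named genes were chosen after their values were seen. Some genes are not reported here.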

Additional observations from a re-analysis of the deposited data

Results flagged for a closer look

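DDIT4 changed in opposite directions with dopamine in the 2 sets of libraries. The change with the inhibitor minus the change without it was -0.82 on the log2 scale (SE 0.10, edgeR adjusted p = 0.00457), and all 3 dopamine libraries lay above the controls while all 3 dopamine + inhibitor libraries lay below control + inhibitor.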

How the results depend on the processing

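For dopamine against control, 133 genes were called by edgeR, against 493 by DESeq2 (296 higher, 197 lower) and 540 in a fit of the 6 libraries alone (273 higher, 267 lower). Of the 133 genes, 126 were shared with each. Leaving out 1 library gave 7 to 100 called genes, 6 to 78 higher and 0 to 22 lower. With voom, other scalings, other filters or the length trend removed, the count ran from 128 to 144. For dopamine + inhibitor against control + inhibitor the 1 called gene became 10 by DESeq2 and 0 with any 1 library left out. The interaction gave 1 gene by edgeR and 18 by DESeq2. Among named genes that were not called, 4 crossed 0 with a library left out: DRD5 ran from -0.18 to 0.39 (-0.09 without dopamine 3), SLC18A2 from -0.21 to 0.10 (0.02 without control 1), GOSR1 from -0.0145 to 0.0426 and PTPRC from -0.11 to 0.90. The cause of these shifts was not tested. No paired analysis was possible because the library numbers were given in accession order and pair nothing. DRD3 had 2 to 10 reads a library, which limits what could be detected for it.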

Other observations

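Genes of the cytosolic ribosome moved by small amounts in 1 direction. Of 53 ribosomal protein genes 52 were positive with a median log2 fold change of 0.098, and edgeR called 0, DESeq2 0 and voom 0, with 7 at an unadjusted p under 0.05. Of 40 nuclear genes of oxidative phosphorylation 33 were positive with a median of 0.057, again with 0 called by edgeR, DESeq2 and voom and 6 at an unadjusted p under 0.05. Over all genes 49.3% were positive.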
